A study of Saccharomyces cerevisiae with 6 samples.

Results

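The genes described here encode proteins of the mitoribosome large subunit (mtLSU) of the budding yeast Saccharomyces cerevisiae. They were chosen by name alone, as the rows of the deposited table whose gene name is MRPL followed by a number and nothing else, and 34 of the 7126 genes of the table met this rule. Large subunit genes with other names (MRP7, IMG1, MNP1 and similar) are therefore not among them. The RefSeq annotation of the R64 assembly gives all 34 the same positions and a large subunit protein name. They lie on 12 nuclear chromosomes and are between 213 and 1173 bases long, with a median of 616.5 bases.

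The study asked how the mitoribosome changes with the carbon source. Wild-type haploid BY4741, a laboratory strain of mating type a that carries deletions of HIS3, LEU2, MET17 (MET15) and URA3 in all its libraries, was grown overnight in synthetic complete medium with glucose, which yeast ferments, or with glycerol, which it has to respire. Poly(A) RNA was sequenced from 3 glucose and 3 glycerol libraries, without strand information. The study's methods call the 3 libraries of a condition biological replicates; the sample labels do not say what a replicate number shares.

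The mitoribosome makes the few proteins that the mitochondrial genome encodes, most of them subunits of the respiratory chain and the ATP synthase. Its large subunit holds the peptidyl transferase center, where peptide bonds form, and the tunnel through which the new chain leaves toward the inner membrane. Nearly all proteins of the mitoribosome are encoded in the nucleus, translated in the cytosol and imported. By the common nomenclature, a leading u marks proteins found in ribosomes of all domains of life, b those shared with bacteria and m those specific to mitochondria. In yeast, the RNA-binding protein Puf3 recognizes an element in the 3′ region of many mRNAs for mitochondrial proteins, and in glucose it promotes their decay.

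All 34 MRPL genes (100%) carried at least 1 Puf3 element, written TGTANATA with N for any base, on the sense strand within 200 bases after the stop codon. Over all 5818 genes examined, 836 (14.4%) carried it, and outside the mitoribosome lists 757 of 5739 genes (13.2%) did. The element also stood after 12 of 12 other large subunit genes and 33 of 33 small subunit genes. The 34 genes held 42 elements, with a median distance of the first one of 47.5 bases from the stop codon and a range over all elements of 13 to 165 bases. The variable base was A in 16, T in 15, C in 10 and G in 1. Puf3 prefers a cytosine placed 2 bases before the element, and this base was present at 28 of the 42 MRPL elements (66.7%) and at 227 of 864 elements after all other genes (26.3%). A match of these letters is a description of the sequence and does not show that Puf3 binds there.

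The elements of the 5 genes that rose most in glycerol and of the 5 that fell most are printed below with their flanks, because genes that moved in opposite directions share the element. Each run is the sense strand from 5′ to 3′ in the RefSeq R64 genome, and capitals mark the 8 bases of the element. For genes with more than 1 element the one closest to the stop codon is shown. The first 5 lines belong to genes that rose.
MRPL4: accctctctccTGTAAATAtatatatatat
MRPL28: ctgtctcctgcTGTAAATAactgatgatca
MRPL16: ccatgtatacaTGTATATAactattgaaaa
MRPL35: ttatagtatccTGTACATAtaaaataacgt
MRPL11: ctattcaatcaTGTACATAcatcatcaaaa
MRPL49: ttttagggataTGTACATAtacgcatacgt
MRPL50: gcgtacaatctTGTATATAggcaacatcgc
MRPL37: tttggtatcctTGTAAATAaatatgtgtgt
MRPL20: aataacaatcgTGTAAATActactctataa
MRPL33: tgacttatataTGTATATAgtattattttt
The MRPL4 run lies at chrXII:1015467-1015496 on the plus strand and the MRPL33 run at chrXIII:842249-842278 on the plus strand. The cytosine 2 bases before the element is present in the MRPL4, MRPL16, MRPL35, MRPL11, MRPL50, MRPL37 and MRPL20 runs. It is absent from those of MRPL28, MRPL49 and MRPL33, so it occurs among the genes that rose and among those that fell. MRPL49 has a further element, 41 bases after the stop codon, that does carry this cytosine. The further elements of MRPL28 and MRPL33 do not. The 6 genes that were higher in glycerol had their first element 26 to 54 bases after the stop codon, and for the 16 that were lower this distance was 13 to 136 bases.

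**Figure D1:**
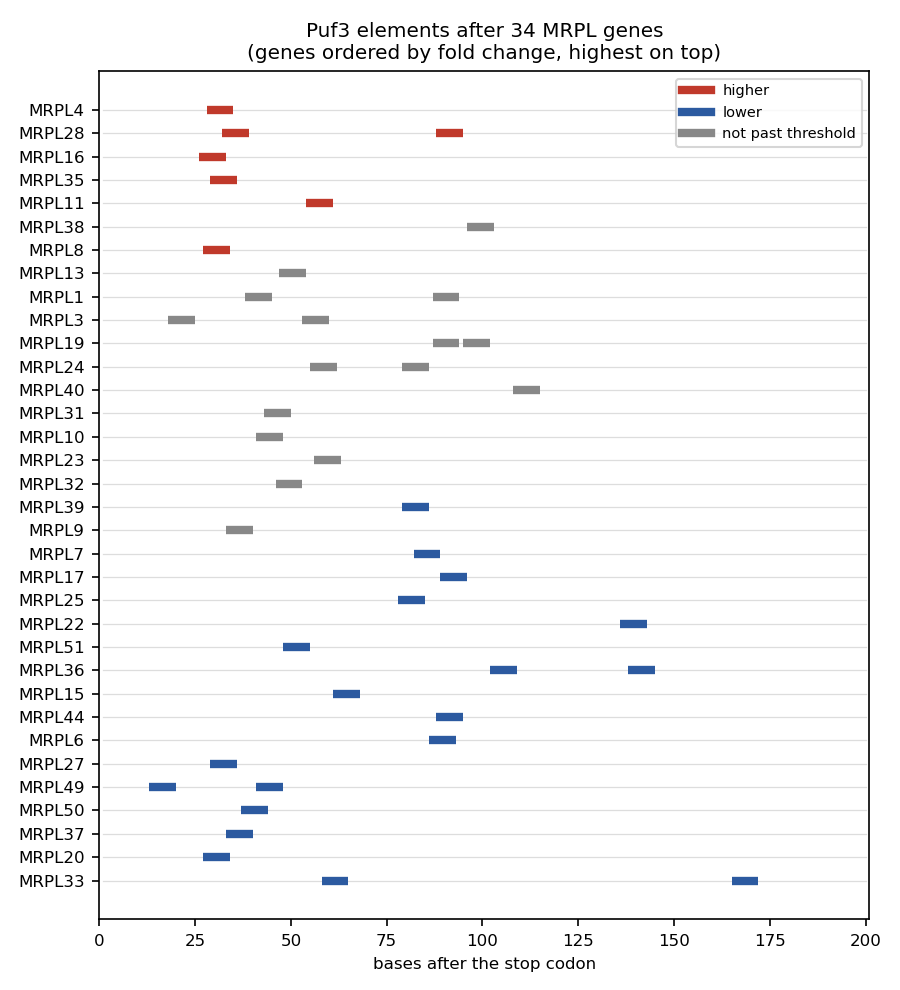
Position of each Puf3 element after the 34 MRPL genes. The horizontal axis is the distance in bases from the stop codon, each row is a gene, ordered by fold change with the highest on top, and each bar covers the 8 bases of an element, coloured by the direction of the gene's change in glycerol (TMM scaling). All 34 rows hold at least 1 bar. Bars start 26 to 88 bases from the stop codon in genes that rose and 13 to 165 bases in genes that fell. In genes that did not pass they start 18 to 108 bases from it.

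In the libraries as a whole, totals lay between 15289163 and 20038052 counts. Cytosolic ribosomal protein genes took 25.0 to 28.4% of the counts in glucose and 5.73 to 6.79% in glycerol, and the TMM scaling factors, which correct for such shifts in composition, were 0.829 to 0.865 in glucose and 1.18 to 1.20 in glycerol. Genes of glycerol use (GUT1, GUT2, STL1) and JEN1, the gene of a lactate and pyruvate carrier that glucose represses, were higher in glycerol, and the glucose transporter genes HXT1 and HXT3 were lower, as the labels would have it. The deleted genes LEU2, URA3 and MET17 had 0 counts in all 6 libraries. The 4 genes specific to a cells were detected in every library but were all lower in glycerol, with STE2 at 1176 CPM in glucose and 51.5 CPM in glycerol. The 4 genes specific to alpha cells were not at 0 and were all higher in glycerol, SAG1 rising from 28.7 to 70.9 CPM. The part of these mating type differences in the values below was not tested.

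Between glycerol and glucose, 6 of the 34 MRPL genes rose, 16 fell and 12 did not pass the test. Values are normalized CPM, the counts scaled to a common library size after multiplying each total by its TMM factor, and the test was the quasi-likelihood test of edgeR with Benjamini-Hochberg adjustment over the 6330 genes tested and a threshold of 0.05. Of the members, 64.7% passed, while of all genes tested 81.8% did, 41.7% as higher and 40.1% as lower. The median log2 fold change of the members, glycerol over glucose, was -0.22, which is a level of 0.861 times that in glucose, and the median over all genes tested was 0.03. The quartiles of the members lay at -0.42 and 0.16, and the extremes were 1.60 for MRPL4 and -1.57 for MRPL33. The groups did not overlap for 24 members, 9 higher and 15 lower in glycerol, where 83.8% of all genes tested had groups that did not overlap.

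These directions depend on the scale. With library totals alone as the scale, 19 members were higher and 5 lower, and their median was 0.28, while the median of all genes moved to 0.52. The distance of the members' median from that of all genes was -0.24 on both scales. A change of scale shifts all genes by nearly the same amount, so this distance is not a check of the scale. The counts are from bulk poly(A) RNA, so that a change in the RNA per cell cannot be told apart from a change in a gene's share of it. The 6 members that rose and 5 of those that fell (MRPL49, MRPL50, MRPL37, MRPL20 and MRPL33) kept their direction and passed the threshold under each of the 13 alternatives tried, and these 11 are given first.

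**Figure D2:**
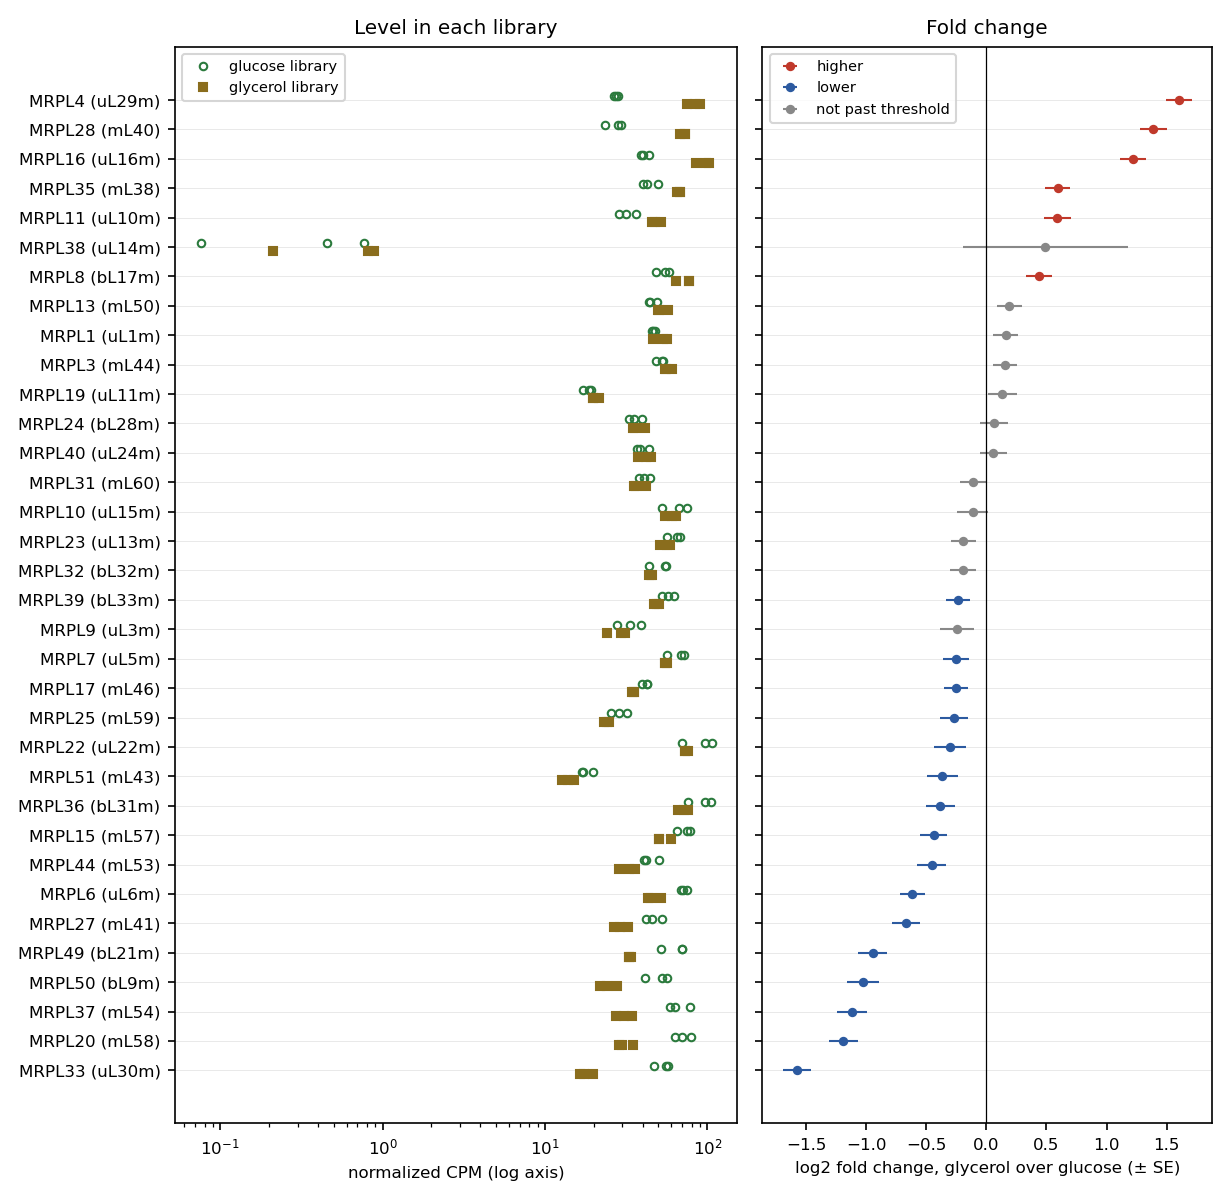
Level and fold change of the 34 MRPL genes, with the protein in parentheses. The left panel gives normalized CPM (TMM scaling) on a log axis for each of the 3 glucose and 3 glycerol libraries, and the right panel the log2 fold change, glycerol over glucose, with its standard error. MRPL4, MRPL28 and MRPL16 sit farthest to the right and MRPL33 at the bottom, and MRPL38 stands apart with levels under 1 CPM. With library totals as the scale, 3 of the genes drawn as lower (MRPL7, MRPL17 and MRPL39) passed as higher and 8 others did not pass. On that scale, 10 of the 12 genes drawn as not past the threshold passed as higher.

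MRPL4, which encodes uL29m, a protein next to the exit of the peptide tunnel, showed the largest rise. Its level was 26.7, 27.2 and 28.0 CPM in the glucose libraries and 75.3, 83.4 and 89.9 CPM in the glycerol libraries. The highest glucose library was thus well below the lowest glycerol library. The log2 fold change was 1.60 (SE 0.106, adjusted p = 1.5e-09 by edgeR), a 3.03-fold rise. The gene lies on chromosome XII at 1014491 to 1015450.

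MRPL28 encodes mL40, a mitochondria-specific protein of the central protuberance, the lobe at the top of the large subunit. Its level was 23.4, 28.3 and 29.6 CPM in glucose and 67.5, 72.9 and 72.7 CPM in glycerol. All 3 glycerol libraries were above all 3 glucose libraries. The log2 fold change was 1.39 (SE 0.112, adjusted p = 1.5e-08 by edgeR). With 444 bases, MRPL28 was the only member under 500 bases that rose under TMM scaling.

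MRPL16 encodes uL16m, which lies beside the aminoacyl-tRNA and the peptidyl transferase center. Its level was 43.5, 40.1 and 39.0 CPM in glucose and 85.3, 102.7 and 97.6 CPM in glycerol. The groups were again far apart, with the glycerol libraries differing more among themselves than the glucose libraries. The log2 fold change was 1.22 (SE 0.106, adjusted p = 3.5e-08 by edgeR). These were the only 3 members that rose by a factor of 2 or more, a size of rise that 24.7% of all genes tested reached.

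MRPL35 and MRPL11 rose by nearly the same amount. MRPL35 encodes mL38, a further protein of the central protuberance, and its level was 42.8, 40.2 and 49.7 CPM in glucose and 65.1, 67.7 and 67.4 CPM in glycerol. MRPL11 encodes uL10m, which anchors the stalk that contacts translation factors, and its level was 28.5, 31.5 and 36.4 CPM in glucose and 45.7, 47.8 and 51.7 CPM in glycerol. In neither gene did the groups overlap. Both log2 fold changes were 0.59, with a SE of 0.105 for MRPL35 and of 0.114 for MRPL11, and the adjusted p by edgeR was 8.9e-05 and 2.0e-04, respectively. The sixth gene that rose was MRPL8, at 0.44 (SE 0.111, adjusted p = 0.0019 by edgeR), from 53.6 ± 4.95 CPM (SD, n = 3) to 72.6 ± 7.40 CPM (SD, n = 3). It encodes bL17m, the large subunit protein that the study tagged to purify mitoribosomes.

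At the other end, MRPL33, the gene of uL30m, showed the largest fall. Its level was 55.3, 57.0 and 46.9 CPM in glucose and 19.7, 16.5 and 17.3 CPM in glycerol. The lowest glucose library was more than double the highest glycerol library. The log2 fold change was -1.57 (SE 0.119, adjusted p = 7.2e-09 by edgeR), a level of 0.336 times that in glucose. The gene lies on chromosome XIII at 841942 to 842202 and is the second shortest member.

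MRPL20 and MRPL37 encode mL58 and mL54, both mitochondria-specific. The level of MRPL20 was 69.4, 79.2 and 63.2 CPM in glucose and 29.7, 34.9 and 28.4 CPM in glycerol, and its log2 fold change was -1.19 (SE 0.118, adjusted p = 1.6e-07 by edgeR). The level of MRPL37 was 63.5, 77.9 and 59.2 CPM in glucose and 34.4, 30.5 and 27.5 CPM in glycerol, and its log2 fold change was -1.12 (SE 0.125, adjusted p = 6.5e-07 by edgeR). For both, every glucose library was above every glycerol library, and glucose library 2 was the highest of all.

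MRPL50 and MRPL49 encode bL9m and bL21m, both of the bacterial type, and the RefSeq notes describe the former as not essential for mitochondrial translation. The level of MRPL50 was 56.6, 52.3 and 41.2 CPM in glucose and 24.1, 27.7 and 22.0 CPM in glycerol, and its log2 fold change was -1.03 (SE 0.133, adjusted p = 3.4e-06 by edgeR). The level of MRPL49 was 70.1, 70.0 and 51.8 CPM in glucose and 32.9, 33.7 and 33.1 CPM in glycerol, and its log2 fold change was -0.95 (SE 0.121, adjusted p = 3.1e-06 by edgeR). The groups did not overlap, and glucose library 3 was the lowest of the glucose libraries for each of the 5 genes with the largest falls. MRPL33, MRPL20, MRPL37 and MRPL50 were the only members that fell by a factor of 2 or more under TMM scaling, a size of fall that 21.5% of all genes tested reached.

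The other genes that fell did so by less. MRPL27 (mL41), MRPL6 (uL6m), MRPL44 (mL53) and MRPL15 (mL57) had log2 fold changes of -0.67, -0.62, -0.45 and -0.44, with groups that did not overlap, and passed under all 6 omissions of a library, though not with library totals as the scale. MRPL15 and MRPL3 encode mL57 and mL44, a pair of proteins related to ribonuclease III that sit together near the tunnel exit, and MRPL3 was at 0.15 (SE 0.099) and did not pass. MRPL36 (bL31m, -0.38) passed in 5 of the 6 omissions and MRPL51 (mL43, -0.37) in 3. The RefSeq notes give overproduction of the former as a suppressor of mutations in the COX2 leader, and the latter as needed for intact mitochondrial DNA.

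A last group of 5 genes fell by little and passed in only 1 of the 6 omissions. MRPL22 (uL22m, lining the tunnel), MRPL25 (mL59), MRPL17 (mL46) and MRPL7 (uL5m, both in the central protuberance) and MRPL39 (bL33m) had log2 fold changes between -0.30 and -0.24 and adjusted p between 0.030 and 0.048 by edgeR. The level of MRPL22 was 106, 97.3 and 69.4 CPM in glucose and 72.6, 76.3 and 72.7 CPM in glycerol, so that its groups overlapped through glucose library 3. Without glycerol library 3 the count of genes that fell was 9 instead of 16, without glycerol library 2 it was 10, and without glucose library 3 it was 19.

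Among the 12 genes that did not pass were parts of both stalks and of the tunnel. MRPL1 (uL1m, the stalk on the side where tRNA leaves) was at 0.16, MRPL19 (uL11m, at the base of the factor-binding stalk) at 0.13 and MRPL40 (uL24m, near the tunnel exit) at 0.06. MRPL13 (mL50, 0.19), MRPL24 (bL28m, 0.06), MRPL31 (mL60, -0.11), MRPL10 (uL15m, -0.11), MRPL23 (uL13m, -0.19) and MRPL9 (uL3m, toward the peptidyl transferase center, -0.24) complete the list together with MRPL3, MRPL32 and MRPL38. A p that misses the threshold does not show that the levels were equal. With library totals as the scale, 10 of these 12 genes passed as higher, all but MRPL9 and MRPL38.

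MRPL32 encodes bL32m, a zinc-binding protein that the m-AAA protease of the inner membrane trims before it joins the subunit. Its level was 54.7, 55.4 and 43.6 CPM in glucose and 43.6, 45.7 and 45.2 CPM in glycerol. Glucose library 3 fell among the glycerol libraries, and the log2 fold change of -0.19 (SE 0.111, adjusted p = 0.118 by edgeR) did not pass. With library totals as the scale it was 0.30 (SE 0.111, adjusted p = 0.015 by edgeR). The genes of both subunits of that protease rose. AFG3 (YTA10) went from 74.6 ± 2.31 to 364 ± 39.3 CPM (SD, n = 3 each; log2 fold change 2.29, SE 0.113, adjusted p = 6.2e-11 by edgeR). YTA12 went from 106 ± 4.63 to 152 ± 2.63 CPM (SD, n = 3 each; log2 fold change 0.52, SE 0.095, adjusted p = 1.2e-04 by edgeR).

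MRPL38, the gene of uL14m at the interface between the subunits, gave almost no reads. Its counts lay between 1 and 18 a library, while no other member had fewer than 226 counts in any library, and its level was 0.0757, 0.766 and 0.454 CPM in glucose and 0.807, 0.883 and 0.210 CPM in glycerol. The groups overlapped, and with a SE of 0.686 its log2 fold change of 0.49 carries no direction (adjusted p = 0.515 by edgeR). Of its 417 bases, 366 also belong to YKL169C, a gene annotated on the opposite strand with 3 to 11 counts a library. Reads from genes that overlap on opposite strands cannot be told apart without strand. The part of this overlap in the low counts of MRPL38 was not tested. MRPL51, MRPL9 and MRPL19 share 323, 303 and 113 bases with other annotated genes, whose counts were at most 14 a library. The partner of MRPL19 lies on the same strand, and those of MRPL51 and MRPL9 lie on the opposite strand. How reads from shared bases were counted is not known here, so the low partner counts are no measure of the overlap's effect. Of the 423 bases of MRPL51, 100 are free of overlap. The part of the overlap in the levels and fold changes of these genes was not tested.

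Split by nomenclature under TMM scaling, the 14 members of class u had 3 genes higher and 4 lower. Their median log2 fold change was -0.03. The 7 members of class b had 1 higher and 4 lower (median -0.24), and the 13 of class m had 2 higher and 8 lower (median -0.27). Over all genes tested, 41.7% were higher and 40.1% lower. Each class held genes of both directions, and the largest rise and the largest fall were both in class u.

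The level of the members per kilobase of gene length was unequal in glucose. This level is divided by the length, which alone raises short genes, and the part of this division in the order below was not tested. MRPL39, the shortest member with 213 bases, was highest in both conditions, at 270 ± 22.9 CPM per kb in glucose and 229 ± 8.59 CPM per kb under glycerol (SD over the 3 libraries of a group). In its libraries it was at 57.4, 62.5 and 52.7 CPM in glucose and 49.1, 50.5 and 46.9 CPM in glycerol. MRPL37 (210 ± 30.8 CPM per kb) and MRPL33 (203 ± 20.7) followed in glucose and did not differ beyond their spread (SD, n = 3 each). In glycerol they stood at 97.0 ± 10.9 and 68.2 ± 6.42 CPM per kb, ranks 8 and 16 of the 34 (SD, n = 3 each). MRPL4 moved the other way, from rank 33 at 28.4 ± 0.661 CPM per kb to rank 10 at 86.3 ± 7.65, and MRPL28 from rank 19 at 61.0 ± 7.36 to rank 2 at 160 ± 6.86 (SD, n = 3 each). Only MRPL38 was below MRPL4 in glucose, at 1.04 ± 0.829 CPM per kb (SD, n = 3).

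Levels per kilobase were more alike in glycerol. Leaving out MRPL38, the SD of the log2 level per kilobase across the other 33 members was 0.846, 0.889 and 0.761 in the glucose libraries and 0.631, 0.638 and 0.639 in the glycerol libraries. Each glycerol value was below each glucose value. This measure does not depend on how a library was scaled, but it does depend on the division by gene length. Mean levels not divided by length ran from 17.9 (MRPL51) to 92.9 CPM (MRPL36) in glucose. In glycerol they ran from 13.9 (MRPL51) to 95.2 CPM (MRPL16), which is not a narrower range. The ratio of the highest to the lowest mean level per kilobase among these members was 9.49 in glucose and 6.98 in glycerol. The lowest of them in glycerol was MRPL51, at 32.8 CPM per kb over its full length, of which 76.4% is shared with YPR099C. With MRPL38 included the SD was 1.28 to 1.72 in glucose and 1.08 to 1.37 in glycerol, so that the groups overlapped. The other 12 large subunit genes had an SD of 0.443 to 0.629 in glucose and of 0.361 to 0.404 in glycerol, and the 33 small subunit genes one of 0.800 to 0.916 and of 0.754 to 0.778. No difference between these lists was tested.

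**Figure D3:**
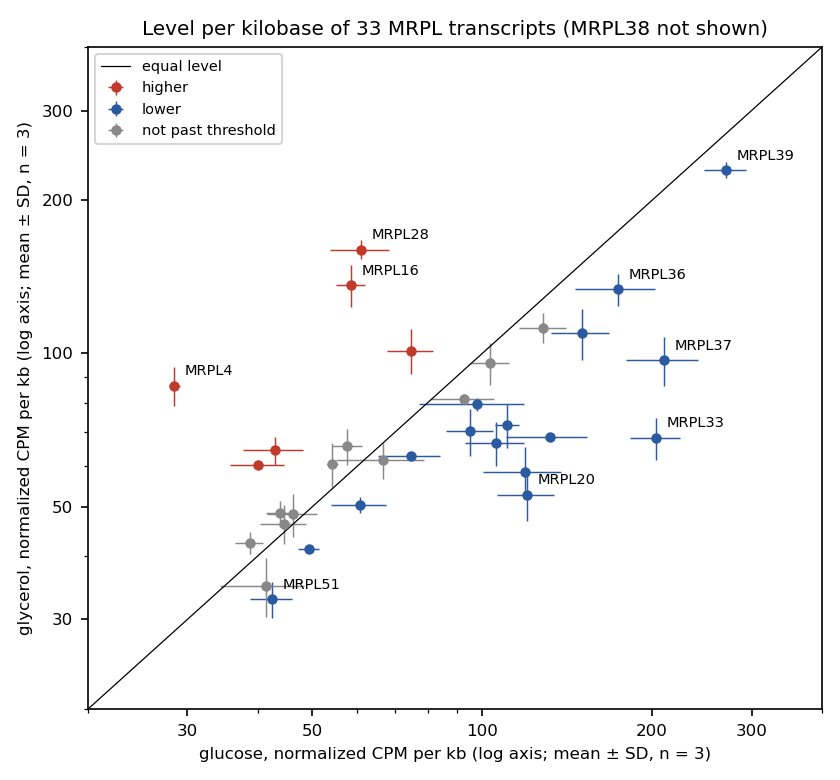
Level per kilobase of 33 MRPL genes in glucose (horizontal) and glycerol (vertical), as the mean normalized CPM per kb with its SD over 3 libraries, both axes logarithmic; the line marks equal levels and colours give the direction of the call under TMM scaling. MRPL38, at 1.04 and 1.52 CPM per kb, is off the scale and not drawn. MRPL4, MRPL28 and MRPL16 lie above the line, and MRPL37, MRPL33 and MRPL20, which were among the more abundant in glucose, lie below it.

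The summed level of all 34 genes was 1719, 1718 and 1520 CPM in the glucose libraries and 1477, 1632 and 1529 CPM in the glycerol libraries, and these groups overlapped. As a share of the raw counts the same genes took 0.131 to 0.143% in glucose and 0.177 to 0.192% in glycerol, without overlap. The rises and falls of single members thus left the TMM-scaled sum within the spread between libraries.

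Across the members, the fold change was compared with the level in glucose and the length of the gene. Spearman's rho between the level per kilobase in glucose and the log2 fold change was -0.70 over 34 genes and -0.69 without MRPL38, but both quantities contain the glucose level, which alone pulls them toward a negative correlation. Between gene length and log2 fold change rho was 0.43 over 34 genes and 0.50 without MRPL38. Between gene length and the level per kilobase rho was -0.53 in glucose and -0.28 in glycerol over 34 genes, but this level is itself divided by the length, which alone pulls toward a negative value. These values describe genes measured in the same 6 libraries, which are not independent replicates.

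Of the 14 members shorter than 500 bases, 1 rose and 9 fell under TMM scaling, with a median log2 fold change of -0.32. Of the 20 members of 500 bases or longer, 5 rose and 7 fell, with a median of -0.03. Over all genes tested the order was the other way, with a median of 0.17 for the 1310 genes under 500 bases, of which 527 rose and 474 fell, and of 0.00 for the 5020 longer ones, of which 2110 rose and 2065 fell. The limit of 500 bases was set with the values known, and no test was made of this split.

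**Figure D4:**
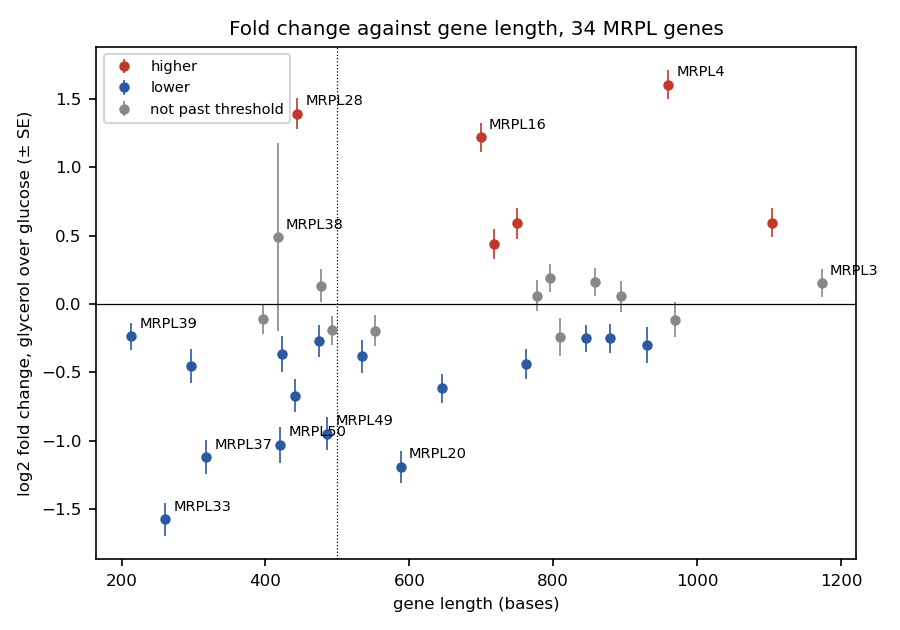
Log2 fold change, glycerol over glucose, of the 34 MRPL genes against gene length in bases, with standard errors; the dotted line marks 500 bases and colours give the direction of the call under TMM scaling. MRPL33 and MRPL37, at the short end, are among the lowest, while of the 6 genes that rose only MRPL28 lies left of the line.

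A pair of promoter motifs was searched on both strands from 250 bases before to 50 bases after the start codon, a window of 300 bases. CCAAT, the letters bound by the Hap complex that controls respiratory genes, was found in 13 of the 34 members (38.2%) and in 43.5% of all 5818 genes. AATTTT, which in Candida albicans is common to promoters of mitochondrial and cytosolic ribosomal protein genes, was found in 13 members (38.2%) and in 52.4% of all genes. Of the 13 members with CCAAT, 4 rose (MRPL4, MRPL16, MRPL35 and MRPL11) and 4 fell. Of the 21 without it, 2 rose and 12 fell. These and the other calls in this paragraph are under TMM scaling. Among the genes that fell under every alternative tried, MRPL20 carries CCAAT and MRPL49, MRPL50, MRPL37 and MRPL33 do not. Over all genes, 1053 of the 2533 with CCAAT rose and 1058 fell, and 1343 of the 3285 without it rose and 1372 fell. Of the 12 large subunit genes with other names, 3 of the 6 with CCAAT rose and 3 fell, while 4 of the 6 without it rose and 0 fell. Of the 33 small subunit genes, 11 of the 15 with CCAAT rose and 1 fell, while 5 of the 18 without it rose and 8 fell. Of the 13 members with AATTTT 2 rose and 5 fell, and of the 21 without it 4 rose and 11 fell. Over all genes, 1068 of the 3051 with AATTTT rose and 1475 fell, and 1328 of the 2767 without it rose and 955 fell. No difference between genes with and without a motif was tested. The letters AAT end the first motif and begin the other, so that matches of both can overlap, and a window without a match says only that these letters are not there.

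The genes of the regulators themselves moved as follows under TMM scaling. PUF3 was at 24.5, 23.3 and 21.6 CPM in glucose and 104, 102 and 125 CPM in glycerol. Every glycerol library was above every glucose library, with a log2 fold change of 2.25 (SE 0.114, adjusted p = 8.3e-11 by edgeR). HAP4, the activating subunit of the Hap complex, was at 163, 206 and 261 CPM in glucose and 235, 232 and 262 CPM in glycerol. Its groups overlapped, and the log2 fold change of 0.21 (SE 0.142, adjusted p = 0.181 by edgeR) did not pass. Of the 6 regulator genes examined (HAP1 to HAP5 and PUF3), 4 rose and 0 fell. Thus 66.7% of them passed, while of all genes tested 81.8% did, 41.7% as higher and 40.1% as lower.

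Under TMM scaling, other lists of the mitoribosome had higher medians than the MRPL genes. Among the 12 large subunit genes with other names, 7 rose and 3 fell, with a median log2 fold change of 0.32, from MRP20 (uL23m, at the tunnel exit) at 1.41 to YDR115W (bL34m) at -0.71. Joined with the 34 members they make 46 large subunit genes, of which 13 rose and 19 fell (median -0.11). Among 33 small subunit genes, 16 rose and 9 fell, with a median of 0.22, from EHD3 (mS47) at 1.90 to MRPS8 (uS8m) at -1.31. Among 12 genes of assembly, maturation and membrane attachment, 9 rose and 1, MTG1, fell by 0.56, with a median of 0.51. The 76 genes of the cytosolic large subunit stood far below all of these, with 1 that rose, 72 that fell and a median of -2.38. Over all genes tested, 41.7% rose and 40.1% fell. The values of the lists are counts and medians, and no difference between the lists was tested.

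**Figure D5:**
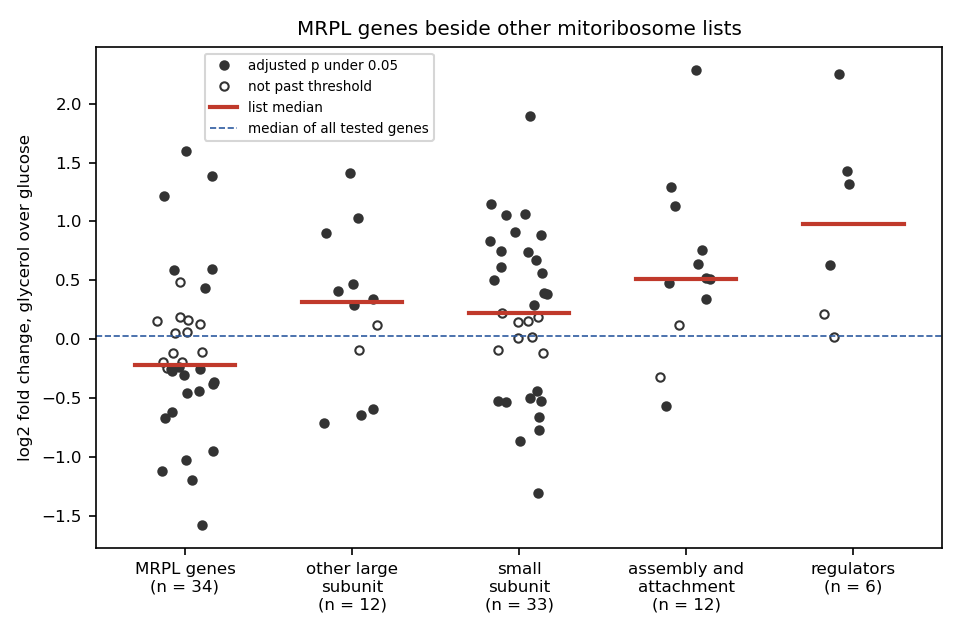
Log2 fold change, glycerol over glucose (TMM scaling), of the genes of 5 lists, each point a gene; filled points passed the edgeR test, open points did not, red bars are list medians and the dashed line is the median of all genes tested. The median of the 34 MRPL genes (-0.22) lies below the dashed line at 0.03 and those of the other 4 lists lie above it, and each of the first 4 lists holds genes on both sides of 0; with library totals as the scale the MRPL median was 0.28 and the dashed line 0.52.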

How the data were processed

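The deposited table held whole-number read counts per gene, made by the authors without normalization, for 3 glucose and 3 glycerol libraries. The submitters' processing notes name fastp 0.20.1, HISAT2 2.2.1, featureCounts 2.0.1, DESeq2 and build R64. The FPKM, fold-change and p-value columns that the authors deposited were not used, and gene length was taken from the same table as the authors' value. Groups came from the sample titles. The 6330 genes that reached 10 counts in 3 or more libraries were scaled by TMM and fitted with edgeR 4.0.16 (quasi-likelihood, R 4.3.3, limma 3.58.1), with DESeq2 1.42.0 as an alternative. Standard errors came from the fold change and the F value. The fit was also run on simulated counts in which few genes changed, so that run says nothing about the choice of scale. Figures used Python 3.11.15 and matplotlib 3.10.9. Depth was 15289163 to 20038052 counts, and replicates differed by more than counting noise (chi-square per degree of freedom 15.5 to 58.3).

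The members and gene lists were chosen with earlier results of these data known. All 34 members are accounted for, with library values for the 5 largest rises and the 5 largest falls, the highest and lowest level per kilobase, MRPL38 and MRPL32; MRPL22 was added after its values were seen. From the other lists, the extremes and PUF3, HAP4, AFG3 and YTA12 are named. Alternatives were other scalings, filters, DESeq2, omission of each library and a replicate block. Sequences were read from the RefSeq R64 genome, and protein sequences were not used here.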

Additional observations from a re-analysis of the deposited data

How the results depend on the processing

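With RLE size factors, no filter on low counts or the replicate block, all 22 calls were kept. The labels do not say what a replicate number shares, and over all genes tested the deviations of same-numbered libraries correlated at 0.171, 0.059 and 0.197, so the numbers were not taken as a pairing. For the 5667 genes averaging 100 or more counts these values were 0.250, 0.105 and 0.289, and in both sets of genes every library correlated best with its own number. With the replicate block 6 members were higher and 16 lower, with a median of -0.21. DESeq2 gave 6 higher and 15 lower, losing MRPL25. A minimum of 100 counts gave 7 higher and 11 lower, with MRPL38 left out. Leaving out each library in turn gave 6 to 7 higher, 9 to 19 lower (10 without glycerol library 2 and 9 without glycerol library 3) and a median of -0.28 to -0.15; the median's distance from that of all genes was -0.32 to -0.16. MRPL38 fell under the filter in 3 of these 6 omissions.

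With library totals only, 19 members were higher and 5 lower (median 0.28). There MRPL10 (0.38), MRPL31 (0.39), MRPL23 (0.31), MRPL32 (0.30), MRPL39 (0.26), MRPL9 (0.25), MRPL7 (0.25), MRPL17 (0.24), MRPL25 (0.23), MRPL22 (0.20), MRPL51 (0.13), MRPL36 (0.12), MRPL15 (0.058) and MRPL44 (0.043) turned positive. With library totals less the cytosolic ribosomal protein genes, 10 were higher and 9 lower (median -0.084), and MRPL10 (0.016) and MRPL31 (0.022) turned positive. Glycerol libraries hold fewer counts of cytosolic ribosomal protein genes, which enter the totals. Over the omissions MRPL10 ranged from -0.25 to 0.0068 (without glucose library 1), and MRPL24 from -0.0016 (without glucose library 2) to 0.14, neither past the threshold where it changed sign. With 1 to 18 counts a library, MRPL38 has too few reads to show a direction.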
